A study of Mus musculus with 41 samples.

Results

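Transcripts that the mouse gene annotation marks as targets of nonsense-mediated decay (NMD) were followed in the RNA of mouse embryonic fibroblasts (MEFs). The members were taken by annotation alone, as every transcript whose biotype is nonsense_mediated_decay. No measured value entered this rule, but it was set with earlier results of these data known. They numbered 7205 of the 142552 transcripts in the RNA values and belonged to 4598 genes. NMD degrades mRNAs on which translation ends too early. In mammals a stop codon that lies well upstream of an exon-exon junction, where an exon junction complex still sits on the mRNA, recruits UPF1 through UPF2 and UPF3, and the SMG proteins then start decay. Many genes for splicing factors use this route on themselves: an alternative exon carries a stop codon, often called a poison exon, and including it turns the mRNA into a substrate for decay.

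RNA was sequenced from primary MEFs in which CAG-Cre ER, a ubiquitously expressed tamoxifen-inducible Cre, had been activated. All RNA libraries belong to batch 6. The control MEFs (n = 3) carried CAG-Cre ER alone. The other cells carried in addition a conditional allele of Upf2, an NMD factor (n = 3), of Pelo, which rescues stalled ribosomes (n = 2), or of Hbs1l, the GTPase partner of PELO (n = 3). Control and mutant cells alike received tamoxifen, came from embryos at embryonic day 13, were labelled C57BL/6, were collected on day 2 of passage 1, and carried the C57BL/6J mutation of the n-Tr20 tRNA gene, so that the tRNA defect is shared by all groups. The substrain of each group of cells is not given in the sources used here. The Hbs1l alleles came from C57BL/6N mice, with the tRNA mutation crossed in, and the Pelo allele was made on C57BL/6J, so that any difference of substrain and the genotype cannot be told apart. The Hbs1l cells had 1 conditional and 1 already deleted allele. Each RNA sample was 1 dish of cells from 1 embryo, and 1 further Pelo sample was left out by the authors as an outlier. The question put by the comparison is whether loss of an NMD factor and loss of ribosome rescue factors change the same RNAs.

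The total of estimated counts ran from 22713643 to 86425762 per RNA library. In the Hbs1l-/- libraries the Hbs1l RNA level was 5.29, 6.00 and 6.24 TPM (the transcript level scaled to transcript length and library size), against 29.0 to 38.3 TPM in control. Pelo RNA was at 0.435 and 0.0698 TPM in the Pelo-/- libraries and at 14.8 to 17.5 TPM in control. Upf2 RNA went the other way: the libraries labelled Upf2-/- held 20.6, 14.4 and 8.61 TPM and the control libraries 3.82, 5.63 and 4.51 TPM, a gene-level log2 fold change of 1.33 (SE 0.24, adjusted p = 0.0033 by edgeR's quasi-likelihood test). Footprints on the Upf2 coding sequence were higher there too (log2 fold change 1.09, SE 0.077, adjusted p = 3.12e-06, edgeR), and Upf2 RNA was lower than control in Pelo-/- cells (-1.38, SE 0.23, adjusted p = 0.0055, edgeR). Among its transcripts, the coding Upf2-202 was at 0.485, 0.534 and 0.546 TPM in control and at 10.7, 7.42 and 4.45 TPM in the libraries labelled Upf2-/- (3.77, SE 0.32, adjusted p = 0.0033, edgeR). Whole-gene values do not separate the deleted exons from the rest of the gene, so they neither check nor refute the deletion, and these cells are called here the libraries labelled Upf2-/-. The 10 fibroblast markers were present in every group, summing to 4350 to 8310 TPM per library. Markers of other cell types summed to far less, though some of each list were at 1 TPM or more on average: 3 of 6 endothelial markers (Pecam1, Kdr and Emcn), 4 of 5 macrophage markers (Csf1r, Cd68, Adgre1 and Cx3cr1), 1 of 5 skeletal muscle markers (Myog), 2 of 4 epithelial markers (Krt8 and Krt18) and 2 of 4 neural markers (Tubb3 and Nes). The 6 endothelial markers summed to 6.67 to 20.6 TPM, the 5 macrophage markers to 8.75 to 26.4 TPM and the 5 skeletal muscle markers to 1.41 to 4.02 TPM, with Cdh5, Tie1, Tek, Ptprc, Myod1 and Ckm below 1 TPM on average. Neural markers, of which Sox2 and Elavl3 were below 1 TPM on average, summed to 66.0 to 126 TPM, and epithelial markers, with Epcam and Cdh1 below 1 TPM on average, to 14.5 to 63.6 TPM. The libraries labelled Upf2-/- overlapped the control range in all 6 lists. The Hbs1l-/- libraries lay wholly below control in the endothelial (6.67 to 7.7 against 15.3 to 20.6 TPM), skeletal muscle, epithelial and neural lists and wholly above it in the macrophage list (16.7 to 26.4 against 8.83 to 15.4 TPM), and the Pelo-/- libraries lay wholly above control in the fibroblast and epithelial lists (54 to 63.6 against 31.7 to 40.3 TPM in the latter). The part of other cells in the results was not tested. In bulk RNA, fewer cells of a type and less RNA per cell cannot be told apart.

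The structure of the members was read from the Gencode M21 annotation of GRCm38, which holds 7147 of the 7205 transcripts. A stop codon was annotated for 7134. In 7100 of them the stop lay at least 50 nt upstream of the last exon-exon junction, at a median of 335 nt. For 4128 members the stop codon lay within sequence that coding transcripts of the gene also translate. In 1422 members it lay in an exon that no coding transcript of the gene holds. In 881 it lay in an exon extended beyond its coding form, in 501 it was the stop codon of a coding transcript, and in 108 it fell inside a UTR of a coding transcript. The stop codon was TGA in 4126 members, TAA in 1606 and TAG in 1402.

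The sequences below show the annotated stop codon of 9 members described in the results. They were chosen to cover these arrangements other than the stop inside a UTR, and to show splicing factors, an NMD factor and a ribosomal protein. Each is the 27 nt of the transcript around the stop, read 5′ to 3′ on the transcript strand from the Gencode M21 transcripts, with the stop codon in capitals.
Srsf3-201: ctcaccaccctcTGAatctgcattagc
Tra2b-206: ctcaggaataagTGAagctgaaatttg
Snrpb-203: tttgtaaagctgTAGcctacagggctc
Srsf2-204: gcagtttcttccTAAgaaaatgatgaa
U2af1-208: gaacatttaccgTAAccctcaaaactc
Snrpa1-201: aaactcaaatttTAAtccaggtgctgg
Hnrnpk-203: gagtatcagtgcTGAtattgagacgat
Smg6-202: ccctgcagtggcTGAgaaggtccttaa
Rpl3-205: gtgctctgctccTGAaggcacaagtct
In Srsf3-201 the stop sits in a 456 nt exon at chr17:29039454-29039909 (GRCm38, plus strand) that the coding transcripts of the gene do not hold, with 3 junctions downstream. The Tra2b-206 stop lies in a 276 nt exon at chr16:22258986-22259261 (minus strand) of the same kind, with 8 junctions downstream. For Snrpb-203 the exon is 124 nt long, at chr2:130176629-130176752 (minus strand), and 5 junctions follow. The Srsf2-204 stop is the stop codon of a coding transcript, with 2 junctions behind it. U2af1-208, Snrpa1-201, Hnrnpk-203 and Smg6-202 stop inside sequence that coding transcripts of the gene also translate, and Rpl3-205 stops in an extended exon of 316 nt at chr15:80080896-80081211 (minus strand).

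NMD transcripts were a small share of the RNA in all cells, and that share was highest in the libraries labelled Upf2-/-. They held 1.78%, 1.81% and 2.06% of the TPM of the control libraries and 2.45%, 2.48% and 2.28% of the libraries labelled Upf2-/-. Their share was 1.82% and 1.69% in the Pelo-/- libraries and 2.099%, 1.97% and 2.00% in the Hbs1l-/- libraries. Every library labelled Upf2-/- lay above every other library. The share of TPM in protein-coding transcripts also set them apart, at 54.05% to 62.6% against 63.1% to 77.3% in all other libraries. The mean was 2.40% ± 0.107 (SD, n = 3) against 1.88% ± 0.154 (SD, n = 3) in control, a difference of 0.52 percentage points, with p = 0.10 by a two-sided exact permutation test, the smallest p that 3 against 3 libraries can give. The differences from control were -0.13 percentage points for Pelo-/- (p = 0.60, exact permutation test) and 0.14 for Hbs1l-/- (p = 0.30, exact permutation test), both smaller than the distance between the lowest and highest control library. With 1 library left out they ran from -0.19 (without Pelo-/- library 1) to -0.040 (without control library 3) and from 0.090 (without control library 1) to 0.23 (without control library 3). More members also reached 1 TPM, 1749, 1765 and 1622 in the libraries labelled Upf2-/-, against 993 to 1141 in control, 1122 and 1190 in Pelo-/- and 1100 to 1126 in Hbs1l-/-. Members above 0 TPM numbered 4389, 4847 and 4689 in the libraries labelled Upf2-/-, against 3382 to 4404 in control and up to 4534 in Hbs1l-/-, so that the groups overlapped by that measure.

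**Figure D1:**
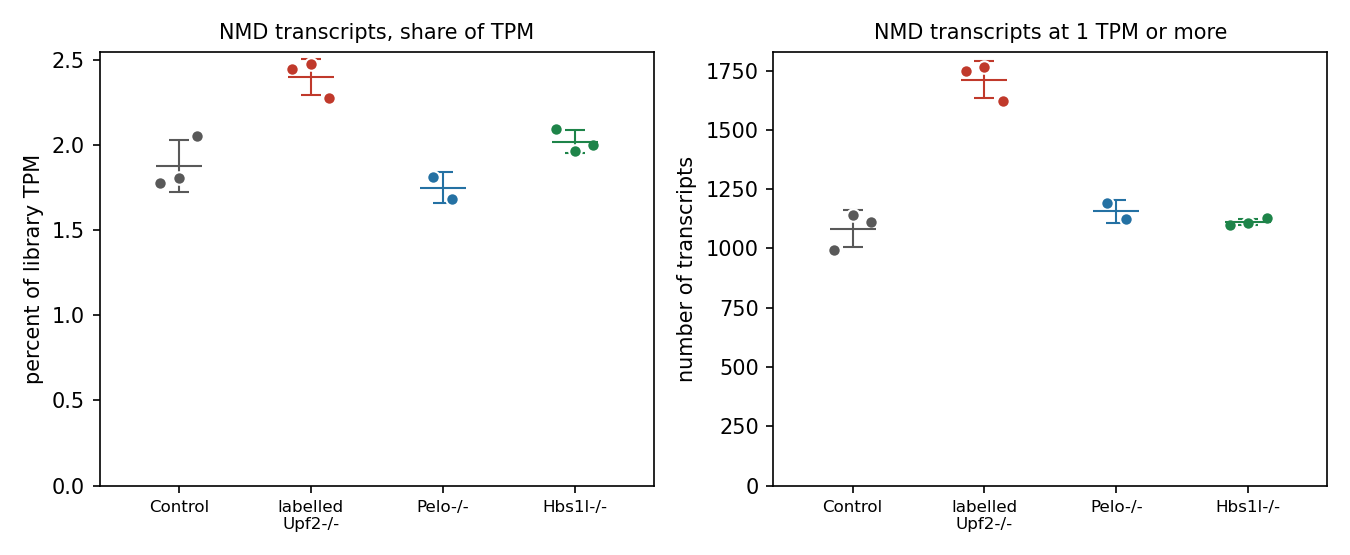
Left, the percent of each library's TPM held by the 7205 NMD transcripts; right, the number of them at 1 TPM or more. Points are libraries, wide ticks are group means and bars are SD; in both panels the 3 libraries labelled Upf2-/- (2.28% to 2.48%, 1622 to 1765 transcripts) lie above all 8 others.

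The level of the members was very uneven. In control, 10 transcripts held 51.2% of all NMD TPM and 100 held 72.8%, while 2103 were at 0 in all 3 libraries and 951 in all 11. The most abundant was Rpsa-206, from the gene of a small-subunit ribosomal protein, at 1813, 1850 and 2423 TPM in control and 1690, 1832 and 1478 TPM in the libraries labelled Upf2-/-. Ppia-201, from the gene of cyclophilin A, stood at 1868, 1772 and 2143 TPM in control and at 1541, 1505 and 1188 TPM in the libraries labelled Upf2-/-, and Lars2-209, from the gene of mitochondrial leucyl-tRNA synthetase, at 1776, 1228 and 933 TPM and at 1451, 1722 and 2031 TPM. None of the 10 passed the test in the libraries labelled Upf2-/-, with log2 fold changes from -0.49 for Ppia-201 (SE 0.12, adjusted p = 0.071, edgeR) to 0.42 for Prdx6-208 (SE 0.10, adjusted p = 0.068, edgeR). With DESeq2 both passed, at adjusted p of 0.00072 and 0.0010. The 10 also included Eef1b2-205, Rpl13a-216, Rpl14-205 and Arf4-203. NMD and coding transcripts of a gene share sequence, and ribosomal protein genes and Ppia have near-identical processed copies elsewhere in the genome, so these values depend on how kallisto divides shared reads and are uncertain. Without these 10 the difference between the libraries labelled Upf2-/- and control was 0.61 percentage points of TPM (p = 0.10, exact permutation test), the differences from control being -0.014 for Pelo-/- (p = 0.90, exact permutation test) and 0.051 for Hbs1l-/- (p = 0.40, exact permutation test).

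Transcript by transcript, NMD members rose in the libraries labelled Upf2-/- and hardly any fell. Of the 7205 members, 2945 had enough counts to be tested, 434 were higher and 3 were lower at an adjusted p of at most 0.05 (edgeR quasi-likelihood test over all 40620 transcripts tested). Over all transcripts tested 4.37% were called higher and 0.985% lower, so the 14.7% of tested members called higher stands above the background and the 0.102% called lower below it. Of the tested protein-coding transcripts 2.99% were higher and 1.41% lower, and of the retained-intron transcripts 4.86% were higher and 0.14% lower. The 434 transcripts belong to 389 genes. In TPM, the 3 libraries labelled Upf2-/- lay wholly above the 3 control libraries for 46.6% of the tested members and wholly below for 2.95%, beside 19.5% and 9.31% of all transcripts tested. The median log2 fold change of the tested members was 0.88, beside 0.0039 for all transcripts.

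A filter that looks at the compared libraries lets in a transcript because it is high in one of the groups. When members were instead selected by their level in the Pelo-/- and Hbs1l-/- libraries, which the comparison does not use, 1744 members were tested, 334 were higher and 0 lower (edgeR), 697 being at an unadjusted p under 0.05, and the median was 0.66 beside 0.0054 over all 29896 transcripts. That is 19.2% of these members called higher, where 5.8% of all transcripts so selected were higher and 1.14% lower. The groups lay apart in TPM, higher in the libraries labelled Upf2-/-, for 43.8% of these members, and lower for 3.96%, beside 17.7% and 10.9% of all. DESeq2 called 767 members higher (26.2% of those with an adjusted p) and 31 lower (1.06%), beside 8.58% and 5.35% of all transcripts. The count of higher members was 131, 126 and 134 without library 1, 2 or 3 of the cells labelled Upf2-/-, and 288, 180 and 313 without control library 1, 2 or 3, with medians of 0.89 to 1.01. In the same order, these are 3.90%, 4.33%, 4.56%, 8.24%, 5.18% and 10.2% of the tested members. Of all transcripts, 1.31%, 1.28%, 1.57%, 2.24%, 1.36% and 2.91% were higher.

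In Pelo-/- and Hbs1l-/- cells few members were called. In Pelo-/- cells 3 were higher and 18 lower of 2165 tested, where 0.722% of all transcripts were called higher and 1.64% lower, and the median of the members was -0.018 beside -0.023 for all transcripts. In Hbs1l-/- cells 6 were higher and 4 lower of 2296 tested, against a background of 0.734% and 0.579%, with a median of 0.069 beside -0.0011. With any 1 library left out, 0 members and 0 of all transcripts were called in either comparison (edgeR), with 230 to 270 members at an unadjusted p under 0.05 for Pelo-/- and 180 to 258 for Hbs1l-/-. By DESeq2, 46 were higher (3.67% of those with an adjusted p) and 92 lower (7.35%) in Pelo-/- cells, beside 8.08% and 10.5% of all transcripts. In Hbs1l-/- cells DESeq2 gave 57 higher (5.15%) and 27 lower (2.44%), beside 9.02% and 7.39% of all transcripts. All 3 comparisons use the same control libraries. The difference was therefore also tested between mutants: 525 members were higher and 20 lower in the libraries labelled Upf2-/- than in Pelo-/- (background 4.97% and 3.82%, edgeR), and 618 were higher and 37 lower than in Hbs1l-/- (background 6.66% and 4.14%, edgeR). The first of these rests on 2 Pelo-/- libraries: 2 members were higher without Pelo-/- library 1 and 0 without library 2 (edgeR), with 1385 and 1350 at an unadjusted p under 0.05, and over all transcripts 9 and 3 were higher. Without library 1, 2 or 3 of the cells labelled Upf2-/- 207, 119 and 302 were higher (6.95%, 4.33% and 10.9%), beside 1.87%, 1.06% and 3.53% of all transcripts. Against Hbs1l-/-, leaving out 1 library gave 273 to 432 (8.23% to 12.4%), beside 2.31% to 3.63% of all transcripts. In both comparisons members can pass the filter through the libraries labelled Upf2-/- alone. Selected by libraries outside the comparison, 405 of 1727 members were higher (23.5%) and 19 lower (1.1%) than in Pelo-/- (edgeR). Of all transcripts so selected, 6.26% were higher and 5.02% lower. Against Hbs1l-/-, 446 of 1717 were higher (26%) and 26 lower (1.51%), beside 8.26% and 4.53% of all transcripts (edgeR).

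**Figure D2:**
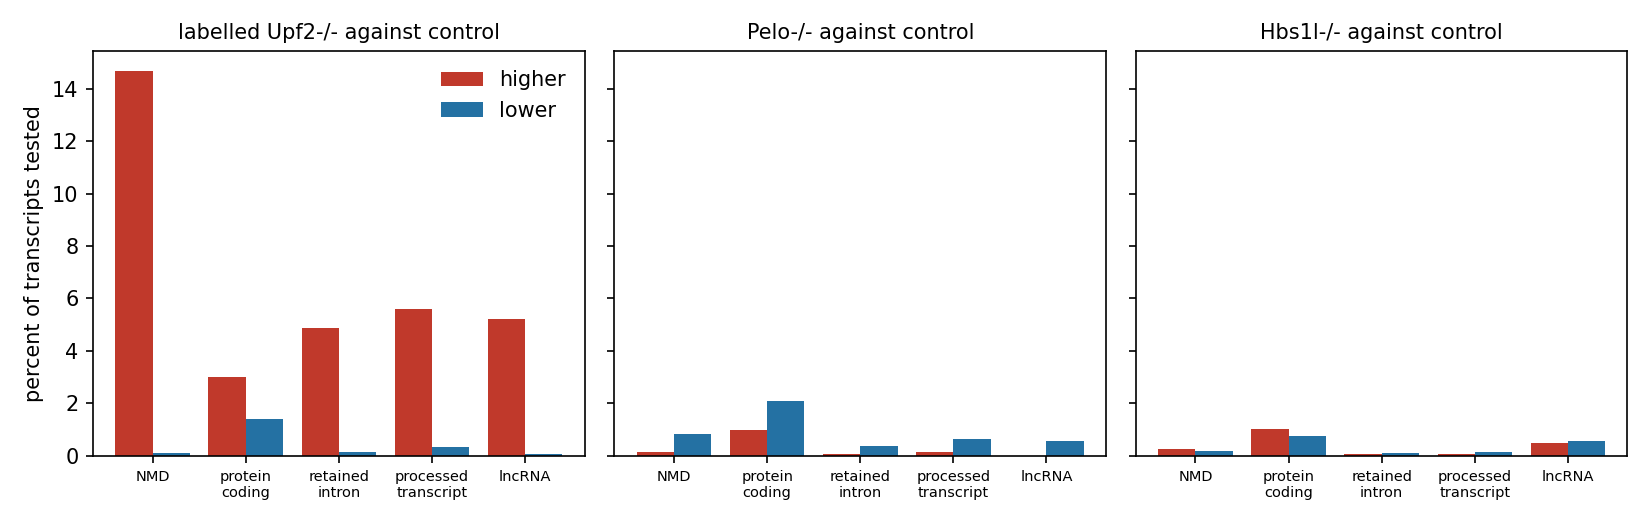
Percent of tested transcripts of each annotated biotype called higher (red) or lower (blue) than control at an adjusted p of at most 0.05, for each mutant. NMD transcripts reach 14.7% higher in the libraries labelled Upf2-/-, and stay under 1% in both directions in Pelo-/- and Hbs1l-/-.

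The largest increases in the libraries labelled Upf2-/- were of transcripts close to absent in control. Wdr4-210, from the gene of the partner subunit of the tRNA methyltransferase METTL1, was at 0, 0.000134 and 0.000125 TPM in control and at 6.09, 5.53 and 7.80 TPM in the libraries labelled Upf2-/-. It was at least 1003-fold higher when the control level is set to 3 counts over the 3 libraries. Hnrnpk-203, from the gene of an hnRNP that binds C-rich RNA, was at 0 in all 3 control libraries and at 8.85, 11.9 and 7.06 TPM in the libraries labelled Upf2-/-, at least 179-fold higher by the same floor. Tom1-208 was likewise at 0 in control and at 1.81, 2.60 and 1.69 TPM, at least 23.3-fold higher. The adjusted p was 0.0028, 0.0046 and 0.022 (edgeR). With control at or near 0, these 3 passed the filter on low counts only through the libraries in which they were high, so that their groups had to differ. Of the 10 members with the largest increase, 9 did not reach the minimum in the Pelo-/- and Hbs1l-/- libraries and were not tested there, and Wdr4-210 did (adjusted p = 0.0018, edgeR). Those 9 entered the comparison through the libraries labelled Upf2-/- alone, and their values are given as a description.

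Other members started from a trace. Nupr1-205, from the gene of a stress-induced transcriptional regulator, was at 0.279, 0 and 1.19 TPM in control and at 21.8, 14.5 and 21.1 TPM in the libraries labelled Upf2-/-. Rtca-204, from the gene of the RNA 3′-terminal phosphate cyclase, had 1.76e-08, 0.270 and 0.0606 TPM in control and 6.32, 4.03 and 3.21 TPM in the libraries labelled Upf2-/-. Trmt1-213, from the gene of a tRNA guanine methyltransferase, had 0, 0 and 0.157 TPM and then 1.74, 3.12 and 4.25 TPM. Ercc8-210, Tmed1-205, Setd6-203 and Sec11c-203 completed the 10 with the largest increase, none above 0.352 TPM in any control library and all between 1.75 and 4.64 TPM in the libraries labelled Upf2-/-. RNA of the whole gene rose in 6 of these 10 genes and fell in none (edgeR), where 13.2% of all genes tested were higher and 6.76% lower; the 10 were chosen for a rise in the same libraries. The 6 had gene-level log2 fold changes of 2.30 for Ercc8, 1.90 for Nupr1, 1.66 for Wdr4, 0.83 for Tmed1, 0.72 for Setd6 and 0.60 for Trmt1. Rtca RNA did not pass the test (0.096, SE 0.12, adjusted p = 0.61, edgeR), nor did that of Hnrnpk, Tom1 and Sec11c.

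The 3 members called lower were Gga2-202, Cenpl-206 and Rad1-203. Gga2-202, from the gene of a Golgi-localized clathrin adaptor, fell from 11.1, 12.5 and 11.6 TPM to 8.46, 9.90 and 7.67 TPM, a log2 fold change of -0.48 (SE 0.097, adjusted p = 0.042, edgeR). The groups did not overlap, but the adjusted p was 0.057 with the filter on the Pelo-/- and Hbs1l-/- libraries and 0.088 to 0.14 with 1 library left out (edgeR).

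Genes for serine/arginine-rich (SR) splicing factors, which bind exonic enhancers and regulate splice site choice, hold 19 NMD members in 11 genes. Of the 13 tested in the libraries labelled Upf2-/-, 8 rose and none fell, with a median log2 fold change of 2.53 beside 0.0039 over all transcripts and 0.88 over all tested NMD members. Called higher were 4.37% of all transcripts and 14.7% of the tested NMD members, as given above. Since members can pass the filter through the libraries labelled Upf2-/- alone, the list was also taken with the filter on the Pelo-/- and Hbs1l-/- libraries, where 7 of 9 were higher, with a median of 2.59 (edgeR; all NMD members 19.2% and 0.66). In Pelo-/- (10 tested) and Hbs1l-/- cells (12 tested) none passed the test, with medians of 0.10 and 0.14. Srsf3-201, the poison exon form shown above, was at 7.48, 10.3 and 9.10 TPM in control and at 62.2, 51.03 and 43.3 TPM in the libraries labelled Upf2-/-. It was at 7.02 and 8.11 TPM in Pelo-/- and at 3.89, 7.51 and 8.42 TPM in Hbs1l-/-. Only the libraries labelled Upf2-/- stood apart, with a log2 fold change of 2.49 (SE 0.13, adjusted p = 0.00089, edgeR).

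Tra2b-206 went from 4.51, 9.84 and 9.28 TPM in control to 53.6, 53.6 and 33.1 TPM in the libraries labelled Upf2-/- (log2 fold change 2.53, SE 0.27, adjusted p = 0.0068, edgeR), with 3.90 to 10.4 TPM in the Pelo-/- and Hbs1l-/- libraries. Srsf2-204 went from 13.6, 13.3 and 32.6 TPM to 75.1, 82.6 and 67.3 TPM (1.86, SE 0.35, adjusted p = 0.036, edgeR). Control library 3 was high for this transcript, yet the groups did not overlap. Srsf7-203, Tra2a-202, Srsf4-203, Srsf4-204 and Srsf2-202 were the other members that rose, of which Srsf4-203 did not reach the minimum in the Pelo-/- and Hbs1l-/- libraries. Srsf6-201, the most abundant of this list, was at 28.1, 35.1 and 41.4 TPM in control and 49.3, 55.2 and 42.4 TPM in the libraries labelled Upf2-/- and did not pass (0.45, SE 0.12, adjusted p = 0.095, edgeR), though it did with DESeq2 (adjusted p = 0.0082).

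**Figure D3:**
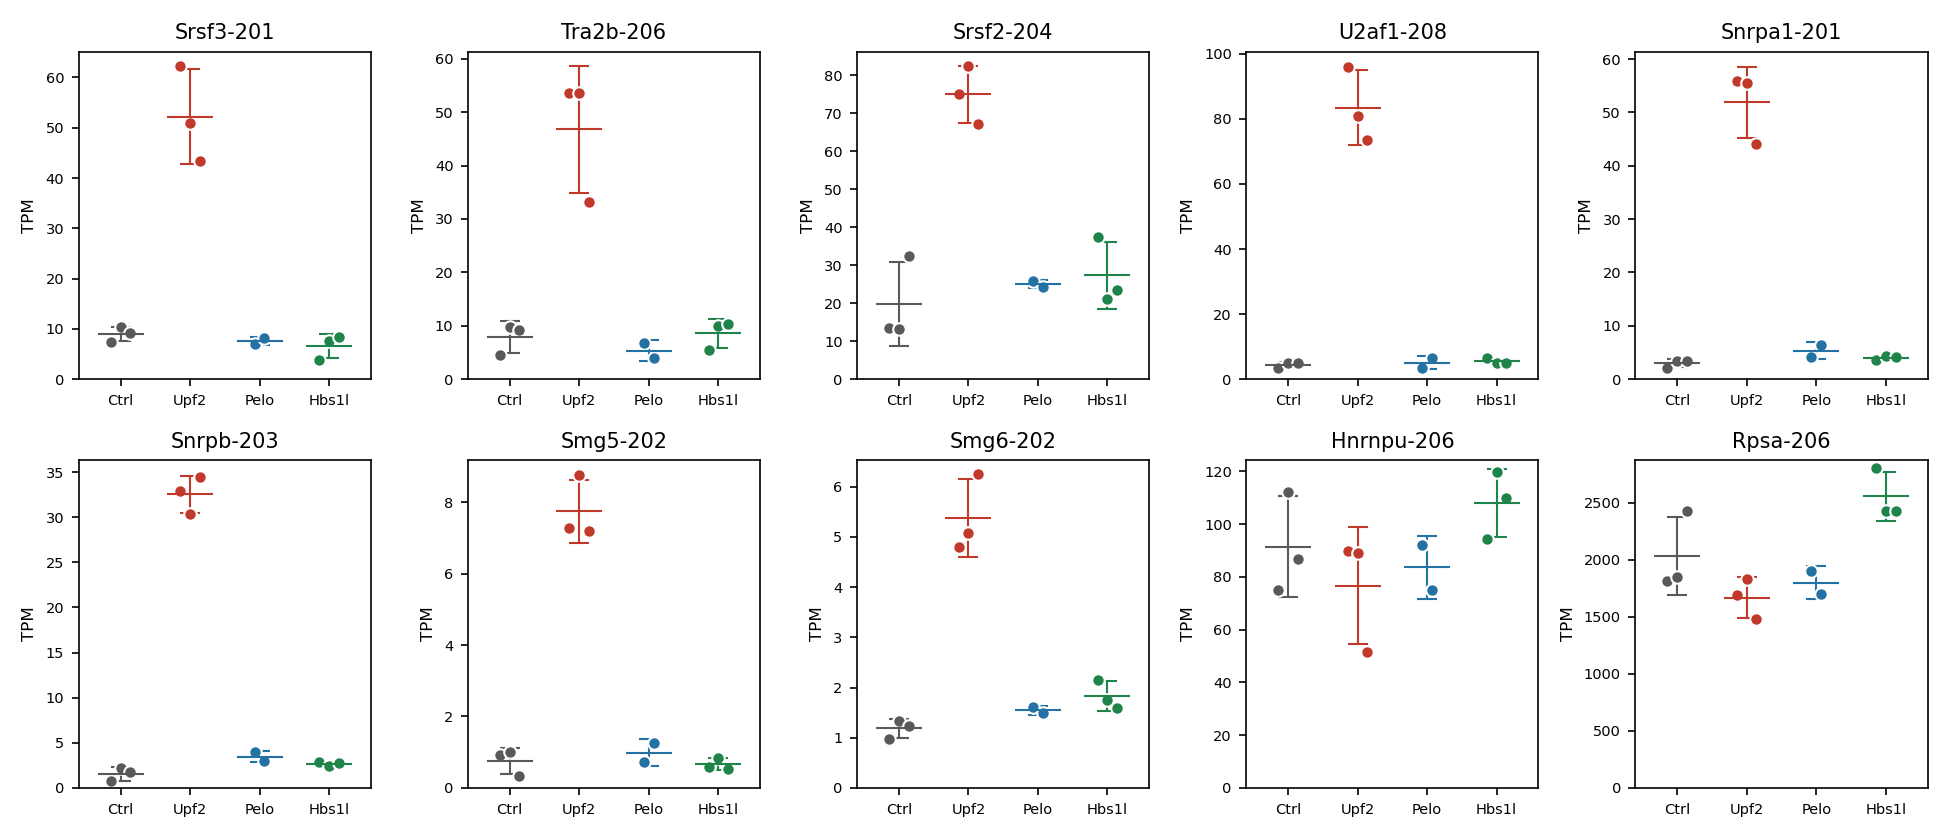
TPM of 10 NMD transcripts in every RNA library (points), with group means (wide ticks) and SD (bars), each panel on its own linear axis from 0. In the first 8 panels the libraries labelled Upf2-/- (Upf2) lie above all others; Hnrnpu-206 and Rpsa-206 overlap control.

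The core spliceosome list, the factors that recognise splice sites and the proteins of the small nuclear ribonucleoproteins, showed the same direction. The list also holds the 4 CLK kinase genes, which phosphorylate SR proteins. Of its members, 11 of 27 tested rose and none fell in the libraries labelled Upf2-/-, with a median of 2.25 (all tested NMD members 14.7% higher, median 0.88; all transcripts 4.37%). With the filter on the Pelo-/- and Hbs1l-/- libraries 8 of 15 were higher, with a median of 2.2 (edgeR). In Pelo-/- and Hbs1l-/- cells none of 18 and 20 tested passed. U2af1 encodes the small subunit of the factor that binds the 3′ splice site. U2af1-208 stood at 3.36, 4.91 and 5.07 TPM in control and rose to 96.0, 80.8 and 73.6 TPM, a log2 fold change of 4.20 (SE 0.16, adjusted p = 0.00034, edgeR). Snrpa1-201, from the gene of the U2 protein A', rose from 2.08, 3.46 and 3.41 TPM to 56.0, 55.6 and 44.1 TPM (4.07, SE 0.18, adjusted p = 0.00041, edgeR). Snrpb-203, from the gene of an Sm core protein, rose from 0.727, 2.17 and 1.71 TPM to 32.9, 30.3 and 34.4 TPM (4.38, SE 0.34, adjusted p = 0.0024, edgeR).

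U2af1-208, Snrpa1-201 and Snrpb-203 also differed between mutants. Against Pelo-/- their log2 fold changes were 4.15, 3.39 and 3.31 (adjusted p = 0.0070, 0.0067 and 0.0051, edgeR), and against Hbs1l-/- they were 3.90, 3.66 and 3.596 (adjusted p = 0.00013, 0.00014 and 0.00031, edgeR). Sf1-201, from the gene of the branch point binding protein, rose less, from 8.98, 15.3 and 10.4 TPM to 25.6, 26.1 and 23.3 TPM (1.09, SE 0.16, adjusted p = 0.017, edgeR). Of the kinase genes, Clk1 and Clk3 each had a member among the 11 that rose (Clk1-210, which did not reach the minimum in the Pelo-/- and Hbs1l-/- libraries, and Clk3-209).

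Members from hnRNP and related RNA-binding protein genes were mixed. Of 41 tested, 14 rose and none fell in the libraries labelled Upf2-/-, with a median of 1.17 (all tested NMD members 14.7% higher, median 0.88; all transcripts 4.37%). With the filter on the Pelo-/- and Hbs1l-/- libraries 11 of 26 were higher, with a median of 0.98 (edgeR). In Pelo-/- cells 2 of 34 fell, where 1.64% of all transcripts and 0.831% of the tested NMD members were lower, and none of 34 passed in Hbs1l-/- cells. Those that rose with either filter include Hnrnpk-230, Hnrnpdl-201 and Hnrnpdl-205, Hnrnph3-204 and Rbm39-225. The most abundant did not: Hnrnpu-206 was at 75.1, 112 and 87.0 TPM in control and 89.7, 89.3 and 51.4 TPM in the libraries labelled Upf2-/- (adjusted p = 0.42, edgeR), and Tardbp-228 was at 26.4, 30.8 and 32.8 TPM and 30.3, 27.1 and 16.2 TPM (adjusted p = 0.34, edgeR). Tardbp, the gene of TDP-43, has 10 NMD transcripts, of which Tardbp-226 and Tardbp-230 rose. Tardbp-228 fell in Pelo-/- cells to 21.6 and 17.0 TPM (-0.80, SE 0.11, adjusted p = 0.046, edgeR). The coding Tardbp-204 (-0.83, SE 0.11, adjusted p = 0.043, edgeR) and RNA of the whole gene (-0.69, SE 0.090, adjusted p = 0.0025, edgeR) fell there too. The NMD share of Tardbp did not pass in Pelo-/- cells (adjusted p = 0.95, limma).

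Hnrnpa2b1-209 rose in the libraries labelled Upf2-/- and was at or near 0 in Pelo-/- cells. It was at 2.62, 4.14 and 4.53 TPM in control and at 22.6, 10.9 and 11.1 TPM in the libraries labelled Upf2-/- (1.94, SE 0.33, adjusted p = 0.028, edgeR). In Pelo-/- cells it was at 6.22e-07 and 0 TPM, lower than control (adjusted p = 0.031, edgeR), and in Hbs1l-/- cells at 2.00, 1.62 and 7.47e-09 TPM. With 0 estimated counts in both Pelo-/- libraries, it passed the filter on low counts through the control libraries alone. The groups therefore had to differ, and the value in Pelo-/- cells is given as a description. The other NMD transcript of the gene, Hnrnpa2b1-207, was at 6.56, 5.71 and 6.88 TPM in control and 6.27 and 5.80 TPM in Pelo-/- cells. The coding Hnrnpa2b1-204 (-0.81, SE 0.12, adjusted p = 0.048, edgeR) and RNA of the whole gene (-0.71, SE 0.087, adjusted p = 0.0022, edgeR) were lower in Pelo-/- cells. The NMD share of the gene did not pass there (adjusted p = 0.97, limma).

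Genes of the NMD pathway hold 3 members, all tested, and 2 rose in the libraries labelled Upf2-/-, also with the filter on the Pelo-/- and Hbs1l-/- libraries (edgeR; 14.7% of tested NMD members and 4.37% of all transcripts were higher). Smg6-202, from the gene of the endonuclease of the pathway, was at 0.974, 1.34 and 1.24 TPM in control and at 4.80, 5.09 and 6.26 TPM in the libraries labelled Upf2-/- (2.16, SE 0.20, adjusted p = 0.0044, edgeR). Smg5-202, from the gene of an adaptor that helps dephosphorylate UPF1, was at 0.921, 1.00 and 0.322 TPM and then at 7.29, 8.75 and 7.19 TPM (3.35, SE 0.47, adjusted p = 0.015, edgeR). The coding transcripts rose too, Smg5-201 from 27.7, 29.7 and 31.8 TPM to 77.6, 84.2 and 81.3 TPM (1.41, SE 0.10, adjusted p = 0.0021, edgeR) and Smg6-201 from 3.10, 3.78 and 4.03 TPM to 6.90, 7.25 and 5.77 TPM (0.82, SE 0.10, adjusted p = 0.011, edgeR). In the exon junction complex list Magohb alone has NMD transcripts, and Magohb-203 at 0.410, 0 and 0.481 TPM in control and 5.47, 4.30 and 3.16 TPM in the libraries labelled Upf2-/- did not pass (3.59, SE 0.81, adjusted p = 0.057, edgeR), though it did with DESeq2 (adjusted p = 0.00016) and against Pelo-/- and Hbs1l-/- (adjusted p = 0.038 and 0.011, edgeR). It passed the filter on low counts through the libraries labelled Upf2-/- alone, so these tests are not independent of the filter and nothing is read from them. The NMD share of Magohb rose from 1.33%, 1.16% and 3.57% to 13.04%, 17.9% and 12.5% (log2 ratio 3.01 higher, SE 0.48, adjusted p = 0.0089, limma).

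Ribosomal protein genes hold 25 members, of which 23 were tested, 9 rose and none fell in the libraries labelled Upf2-/-. Their median of 0.65 lay below the 0.88 of all tested NMD members, of which 14.7% were higher, beside 4.37% of all transcripts. With the filter on the Pelo-/- and Hbs1l-/- libraries 9 of 20 were higher, with a median of 1.24 (edgeR), which lay above the 0.66 of all NMD members so selected, 19.2% of them being higher, so that the order of the list and all members turned with the filter. The members that rose are not the abundant ones named above but Rpl3-205, Rpl12-201, Rpl10a-203, Rpl13a-202, Rpl22l1-204, Rpl27a-205, Rps9-210, Rps12-204 and Rps19-205. None of the members from ribosome rescue and quality control genes (2 tested) or from the stress response genes (3 tested) passed. Mdm2-209, from the gene of the p53 ubiquitin ligase, was at 9.69, 9.23 and 16.3 TPM in control and 30.9, 19.0 and 15.8 TPM in the libraries labelled Upf2-/- (0.84, SE 0.30, adjusted p = 0.17, edgeR). Tbl2-201 was at 0.857, 1.38 and 1.76 TPM and at 1.77, 3.66 and 2.11 TPM (0.88, SE 0.36, adjusted p = 0.22, edgeR).

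Few members stood out in Pelo-/- cells. Angptl4-202, from the gene of a secreted lipoprotein lipase inhibitor, rose from 3.54, 3.96 and 3.54 TPM in control to 10.6 and 8.38 TPM (1.23, SE 0.15, adjusted p = 0.037, edgeR). Brd2-207, from the gene of a bromodomain protein, rose from 5.21, 7.16 and 6.68 TPM to 12.2 and 12.2 TPM (0.82, SE 0.11, adjusted p = 0.044, edgeR), and in the libraries labelled Upf2-/- to 38.7, 43.1 and 40.3 TPM (2.65, SE 0.11, adjusted p = 0.00034, edgeR). Bmp1-205 was the third. Zbtb8os-201 fell in Pelo-/- cells from 10.9, 12.6 and 13.04 TPM to 4.27 and 3.801 TPM (-1.77, SE 0.21, adjusted p = 0.037, edgeR), as did 1110059E24Rik-207, from 3.56, 4.74 and 4.81 TPM to 1.20 and 1.01 TPM. RNA of the whole gene moved the same way in each of these 5 genes, by 1.16 for Angptl4, 0.73 for Brd2, 0.65 for Bmp1, -1.04 for Zbtb8os and -2.06 for 1110059E24Rik on the log2 scale (adjusted p from 0.0004 to 0.0032, edgeR). The NMD share passed the test in none of them (adjusted p from 0.84 to 0.99, limma).

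In Hbs1l-/- cells the members named by size were Ash2l-205, Oasl2-205 and Ccna2-203. Oasl2-205, from an interferon-induced gene, rose from 0.345, 0.4997 and 0.447 TPM to 6.86, 8.57 and 3.12 TPM (3.81, SE 0.41, adjusted p = 0.038, edgeR). Ccna2-203, from the cyclin A2 gene, rose from 7.64, 7.90 and 8.36 TPM to 17.99, 16.7 and 18.4 TPM (1.13, SE 0.11, adjusted p = 0.038, edgeR). Ash2l-205, from the gene of a subunit of histone H3K4 methyltransferase complexes, was below 0.1 TPM in control, at 2.16, 2.11 and 1.67 TPM in Hbs1l-/- cells and at 1.26, 1.77 and 0.697 TPM in the libraries labelled Upf2-/-. The coding transcript Oasl2-201 was at 4.58, 5.16 and 2.09 TPM in Hbs1l-/- cells and at 0 to 0.301 TPM in control (4.84, adjusted p = 0.079, edgeR). Over the whole gene, Oasl2 was higher in RNA (4.17, SE 0.39, adjusted p = 0.00064, edgeR) and in footprints (3.81, SE 0.34, adjusted p = 3.84e-06, edgeR), and its NMD share did not pass (adjusted p = 0.81, limma). Oasl2 footprints were also higher in Pelo-/- cells (6.42, adjusted p = 1.88e-07, edgeR), where its RNA did not pass (-0.021, adjusted p = 0.98, edgeR). In the libraries labelled Upf2-/- both its footprints (4.56, adjusted p = 4.53e-05, edgeR) and its RNA (1.57, adjusted p = 0.0083, edgeR) were higher. In Hbs1l-/- cells whole-gene RNA was also higher for Ccna2 (0.71, adjusted p = 0.0022, edgeR) and Ash2l (0.27, adjusted p = 0.043, edgeR), with an NMD share that did not pass (adjusted p = 0.78 and 0.195, limma). The Ash2l share was 0.488%, 0.605% and 1.02% in control and 6.28%, 6.39% and 5.91% in Hbs1l-/- cells (log2 ratio 2.75 higher, SE 0.39). Ash2l-205 had 0.01, 2.67 and 15.91 estimated counts in control and passed the filter on low counts through the Hbs1l-/- libraries alone. As the share passed in 0 of 2511 genes in Hbs1l-/- cells, the Ash2l values are given as a description.

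Gene by gene, the share of a gene's TPM held by its NMD transcripts showed the same direction. The share was tested in 2511 genes with a mean of at least 1 TPM over all 11 libraries and at least 0.1 TPM in NMD transcripts, as the log2 ratio of NMD to other TPM with 0.1 TPM added to each (limma). In the libraries labelled Upf2-/- it was higher in 546 genes (21.7%) and lower in 10 (0.398%). With both minimums applied to the Pelo-/- and Hbs1l-/- libraries in place of all 11, an alternative chosen after seeing the data, it was higher in 499 of 2354 genes (21.2%) and lower in 10 (0.425%). The count of 546 fell to 178, 212 and 146 without library 1, 2 or 3 of the cells labelled Upf2-/- and to 334 with 0.01 TPM added. In Pelo-/- and Hbs1l-/- cells 0 genes passed, with 157 genes at an unadjusted p under 0.05 in each (limma). Directly compared, the share was higher in 464 genes (18.5%) and lower in 13 (0.518%) in the libraries labelled Upf2-/- than in Pelo-/-, and higher in 646 (25.7%) and lower in 10 (0.398%) than in Hbs1l-/-. The median share over the 2511 genes was 4.42% to 4.94% in the control libraries, 9.71% to 10.1% in the libraries labelled Upf2-/-, 4.63% and 4.93% in Pelo-/- and 4.33% to 5.03% in Hbs1l-/-. A share above 10% was seen in 881 to 889 genes per control library and in 1237 to 1262 genes per library labelled Upf2-/-.

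In the 546 genes the median of the mean shares was 2.63% in control and 12.7% in the libraries labelled Upf2-/-. NMD TPM in these genes changed by a median of 2.06 on the log2 scale with 0.1 TPM added, and the TPM of their other transcripts by 0.0088; both values are descriptions of genes chosen on this contrast. At the level of the whole gene, 175 of the 546 were higher and 24 lower in RNA (edgeR), where 13.2% of all genes tested were higher and 6.76% lower. RNA of the whole gene includes the NMD transcripts the genes were chosen on, so these counts are descriptions too. In 52 of the 546 the NMD transcripts held more than 50% of the gene's TPM in the libraries labelled Upf2-/-, as against 13 in control.

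**Figure D4:**
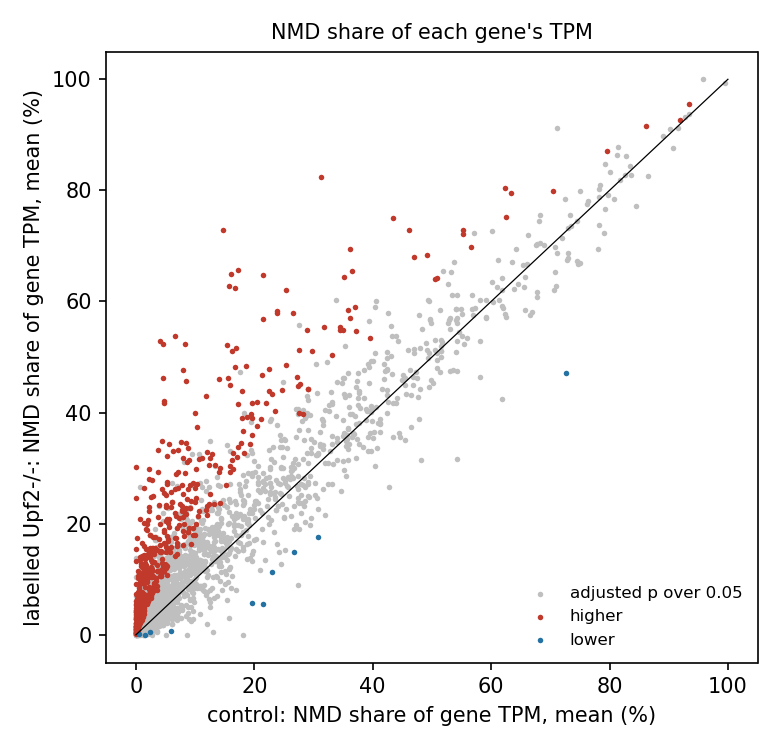
Mean NMD share of TPM per gene in the libraries labelled Upf2-/- against control, for 2511 genes (points, percent on both axes, line of equality). The 546 genes called higher (red) lie above the line and the 10 called lower (blue) below it.

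In several splicing genes the NMD form came to hold a large part of the RNA. Snrpa1 carried 2.92%, 4.85% and 4.41% of its TPM in its NMD transcript in control and 51.2%, 52.8% and 54.6% in the libraries labelled Upf2-/-, with 6.28% and 9.62% in Pelo-/- and 4.85% to 5.68% in Hbs1l-/- (log2 ratio 4.71 higher than control, SE 0.27, adjusted p = 0.0010, limma). Its coding transcript Snrpa1-206 fell from 68.3, 66.7 and 73.2 TPM to 52.2, 48.6 and 35.4 TPM (-0.67, SE 0.13, adjusted p = 0.041, edgeR), and Snrpa1 RNA as a whole did not pass the test (0.21, SE 0.11, adjusted p = 0.23, edgeR). Such a fall was not the usual case: of 924 tested coding transcripts of genes with a member that rose, 98 were higher and 12 lower, with a median of 0.22 (edgeR). Of all tested protein-coding transcripts 2.99% were higher and 1.41% lower, with a median of -0.085, and of all transcripts 4.37% and 0.985%. These genes were chosen for a rise in the same libraries, so the counts are a description. In Tra2b the share rose from 11.3%, 19.4% and 17.3% to 67.8%, 63.2% and 63.8%. In Srsf3 it rose from 7.17%, 9.11% and 7.60% to 51.3%, 38.8% and 53.2%, with 11.5% and 14.5% in Pelo-/- and 4.17% to 6.53% in Hbs1l-/-. In U2af1 it rose from 4.20%, 5.08% and 4.45% to 48.0%, 41.8% and 49.1%.

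By list, the share rose in 9 of 10 tested SR genes, 14 of 21 core spliceosome genes (Clk1, Clk2, Clk3 and Clk4 among them), 11 of 18 hnRNP genes, 2 of 3 NMD factor genes and 8 of 19 ribosomal protein genes, and fell in none of them, beside 21.7% of all genes tested. Magohb was the only exon junction complex gene tested, and its share rose. Ankzf1 was the 1 of 2 rescue and quality control genes with a higher share, and Mdm2 the 1 of 2 stress response genes. Rpl3, the gene of a large-subunit ribosomal protein, held 0.673%, 0.3995% and 0.605% of its TPM in Rpl3-205 in control and 10.3%, 9.99% and 11.95% in the libraries labelled Upf2-/- (4.43, SE 0.39, adjusted p = 0.0018, limma). Hnrnpk held 0.166%, 0.478% and 0.505% and then 11.8%, 9.72% and 10.1%. Snx17, of the endosomal sorting nexins, held 0.910%, 0.0218% and 0.308% and then 9.27%, 12.4% and 12.95%. Pdia3, Mrpl28, Sec11c, Ppid, Snrpb and Zfp326 completed the 10 genes with the largest rise.

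The share passed the test in none of the genes Rpsa, Lars2, Ppia and Hnrnpu, whose NMD members were among the abundant ones. The 2 NMD transcripts of Rpsa held 71.4% to 72.8% of Rpsa TPM in control and 71.2% to 71.9% in the libraries labelled Upf2-/-, and the Lars2 share was 99.2% to 99.6% and 99.3% to 99.4%. In Ppia the range was 58.6% to 61.6% in control and 59.1% to 61.0% in the libraries labelled Upf2-/-, and in Hnrnpu 75.6% to 80.6% and 78.4% to 79.4%. The differences in log2 ratio were between -0.23 (Lars2, SE 0.27) and 0.043 (Hnrnpu, SE 0.15), none past the threshold (limma). Among the 10 genes whose share fell, Ubl4a, the gene of a chaperone of tail-anchored proteins, held 24.3%, 26.4% and 29.5% in control and between 13.2% and 17.8% in the libraries labelled Upf2-/- (-1.04, SE 0.25, adjusted p = 0.028, limma), without overlap. Its RNA as a whole rose (0.59, SE 0.11, adjusted p = 0.0053, edgeR). The other 4 named by size, Pepd, Gart, Ciapin1 and C030006K11Rik, had NMD transcripts below 1 TPM on average in both groups.

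Members were next set side by side by the place of the stop codon, its distance to the last junction and the number of junctions after it. Among tested members that also passed a minimum of 0.5 CPM (counts scaled to library size) in the Pelo-/- and Hbs1l-/- libraries, 17.5% of 1713 were called higher in the libraries labelled Upf2-/-, beside 4.60% of all transcripts so selected, and 1 member was lower (0.0584%), beside 1.27% (edgeR). By place, it was 19.5% of 292 with the stop in an exon absent from coding transcripts, 21.5% of 233 with an exon extension, 15.9% of 991 with the stop in shared coding sequence and 16.9% of 136 that used the stop of a coding transcript. By distance, 16.9% of 154 members with the stop 51 to 100 nt upstream of the last junction were higher, 21.7% of 230 at 101 to 200 nt, 23.5% of 379 at 201 to 400 nt, 19.0% of 394 at 401 to 800 nt and 10.4% of 537 at more than 800 nt. The median log2 fold changes over these 5 distance classes ran from 0.46 to 0.72, lowest of the 5 beyond 800 nt. A further 4 members had the stop within 50 nt of the last junction, with a median of 0.23 and none called higher. By the number of junctions after the stop, 17.8% of 309 members with 1, 17.1% of 292 with 2, 28.3% of 247 with 3 and 14.2% of 850 with 4 or more were higher. Members that end on TAA, TAG and TGA were higher in 15.5%, 17.5% and 18.1%. These are descriptions, without a test, and length and level differ between the classes.

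**Figure D5:**
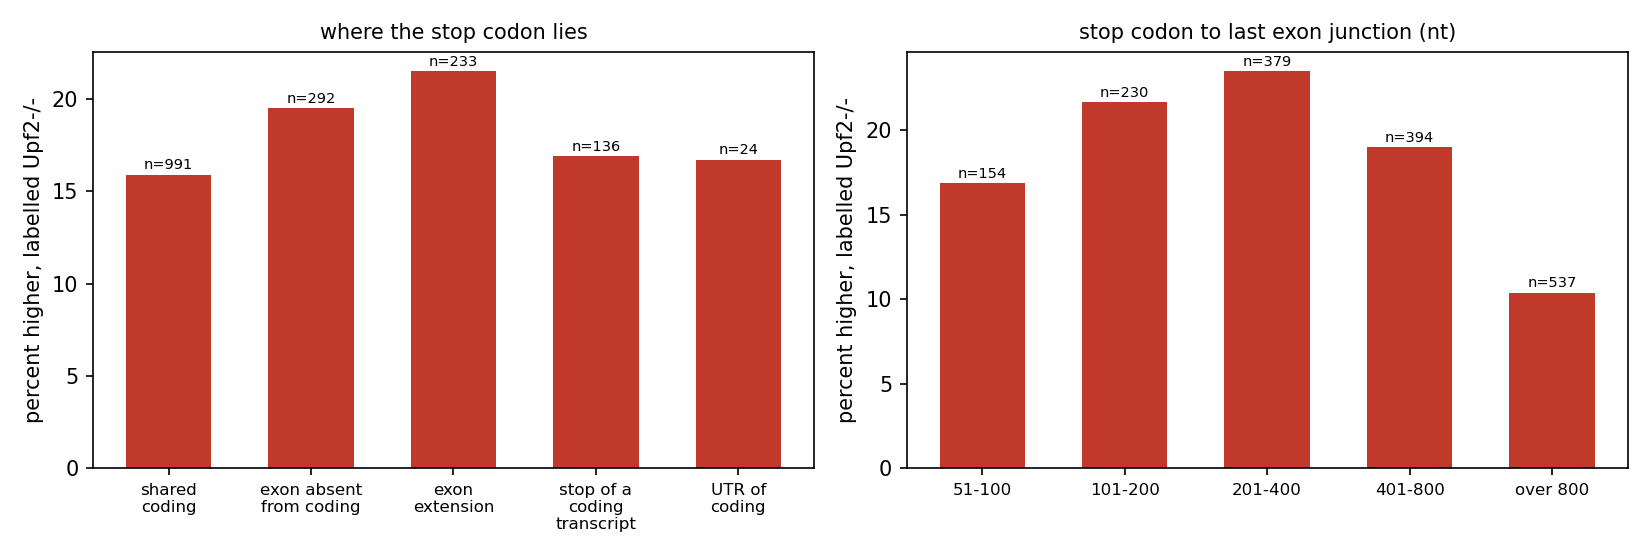
Percent of tested members called higher in the libraries labelled Upf2-/-, by where the stop codon lies (left) and by its distance to the last exon-exon junction (right); n is the number of tested members in each class that reached 0.5 CPM outside the comparison. The rate peaks at 23.5% for 201 to 400 nt and is 10.4% beyond 800 nt.

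Ribosome footprints, from separate libraries each with control libraries of its own batch, were read for the 546 genes with a higher NMD share, of which 539 were tested. In the footprint libraries labelled Upf2-/-, 173 of them (32.1%) had more footprints on their coding sequence and 80 (14.8%) fewer (edgeR), where 22.3% of all genes had more and 21.1% fewer, and the median log2 fold change was 0.11 beside 0.00092. In Pelo-/- cells 135 (25.0%) had more and 98 (18.2%) fewer, beside 22.9% and 21.2% of all genes. In Hbs1l-/- cells 103 (19.1%) had more and 73 (13.5%) fewer, beside 17.4% and 16.7%. The counts were made per gene, so footprints on NMD transcripts and on coding transcripts cannot be told apart. Smg5 (0.87, SE 0.081, adjusted p = 1.41e-05, edgeR), Smg6 (0.95, SE 0.096, adjusted p = 2.51e-05, edgeR), U2af1 (0.83, SE 0.14, adjusted p = 0.00067, edgeR), Tra2b (0.74, SE 0.12, adjusted p = 0.00058, edgeR) and Rpl3 (0.81, SE 0.12, adjusted p = 0.00036, edgeR) had more footprints in the libraries labelled Upf2-/-. Snrpa1 (0.20, SE 0.077, adjusted p = 0.055, edgeR) and Hnrnpk (0.19, SE 0.087, adjusted p = 0.11, edgeR) did not pass. Several of these genes also had more footprints in the other mutants. In Pelo-/- cells this held for Rpl3 (0.95, adjusted p = 0.00023, edgeR), Tra2b (0.72, adjusted p = 0.0013), Hnrnpk (0.36, adjusted p = 0.0040) and Smg5 (0.22, adjusted p = 0.038). In Hbs1l-/- cells it held for U2af1 (0.68, adjusted p = 0.0053, edgeR), Hnrnpk (0.33, adjusted p = 0.011) and Smg6 (0.32, adjusted p = 0.022). Differences between mutants in footprints were not tested.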

How the data were processed

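RNA was measured in 11 MEF libraries and ribosome footprints in MEF libraries of 3 batches. The authors quantified the RNA with kallisto 0.42.4 against Gencode M24, correcting sequence bias, and deposited estimated counts and TPM per transcript with the biotype in the transcript name. The deposited footprint counts per gene are whole-number counts over coding sequence, made by the authors with featureCounts after alignment with HISAT2 2.1.0 to mm10, Bowtie2 2.2.3 being listed in the submitters' processing notes. Kallisto divides reads shared by transcripts of a gene, so the level of a single transcript is an estimate.

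Estimated counts were rounded and fitted per transcript over the whole table with edgeR 4.0.16 (R 4.3.3; TMM, filterByExpr, quasi-likelihood test, Benjamini-Hochberg adjustment, threshold 0.05), with the groups compared only. The SE is the log2 fold change divided by the square root of the F value. Gene-level RNA was the sum of transcript counts. NMD shares were tested with limma 3.58.1 on log2 ratios of summed TPM with 0.1 TPM added. Footprint genes were fitted likewise with edgeR, leaving out histone genes. DESeq2 1.42.0, other normalization, filters, pseudocounts, a joint fit, a replicate block and leaving out each library were alternatives. The scripts were tested on simulated data.

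Named members are the 10 NMD transcripts with the largest increase and up to 5 with the largest decrease in the libraries labelled Upf2-/- (3 and 3 for Pelo-/- and Hbs1l-/-) among those past the threshold without overlap and of at least 1 TPM on average, the 10 most abundant in control, up to 4 per gene list of at least 1 TPM, and the 10 and 5 genes with the largest changes of share among those of at least 10 TPM. Some members that this rule names are not reported here. Further names come from the counts they illustrate and were chosen after their values were seen. The members and gene lists were chosen with earlier results of these data known. Stop codons and exons came from Gencode M21 (GRCm38), not the authors' release. RNA samples were single dishes from single embryos.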

Additional observations from a re-analysis of the deposited data

Results flagged for a closer look

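The comparisons of mutants with each other differed by a test of the difference itself. In the libraries labelled Upf2-/- 525 NMD transcripts were higher and 20 lower than in Pelo-/- (edgeR), where 4.97% of all transcripts were higher and 3.82% lower. The first count fell to 2 without Pelo-/- library 1 and to 0 without library 2. Against Hbs1l-/- 618 were higher and 37 lower (edgeR), where 6.66% of all transcripts were higher and 4.14% lower. Both counts use a filter that members can pass through the libraries labelled Upf2-/- alone. Selected by libraries outside the comparison, 405 of 1727 members were higher than in Pelo-/- and 446 of 1717 than in Hbs1l-/- (edgeR). Of all transcripts so selected, 6.26% and 8.26% were higher. The NMD share was higher in 464 genes and lower in 13 than in Pelo-/-, and higher in 646 and lower in 10 than in Hbs1l-/- (limma).

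Hnrnpa2b1-209 was higher in the libraries labelled Upf2-/- than in Pelo-/- by 12.33 on the log2 scale (adjusted p = 0.011, edgeR), a fitted value that depends on the prior count because both Pelo-/- libraries are at or near 0. It passed the filter on low counts through the libraries labelled Upf2-/- alone, so the groups had to differ and nothing is read from this test. Oasl2-205 and Ccna2-203 were lower in the libraries labelled Upf2-/- than in Hbs1l-/-, by log2 fold changes of -2.45 (adjusted p = 0.019, edgeR) and -1.35 (adjusted p = 0.022, edgeR). The causes were not tested. With 2 or 3 libraries per group, no group was large enough to look for single libraries far from the others.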

How the results depend on the processing

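Of 62 results for named members and genes, none changed sign under an alternative that could be run for it, and neither did the 3 differences in library share. Near 0, the median of the members in Pelo-/- cells went from -0.018 to 0.0048 without control library 2, and the median of all transcripts in the libraries labelled Upf2-/- from 0.0039 to -0.0035 with DESeq2. Of 784 comparisons of a named result with a setting, 586 kept their side of the threshold, 184 lost it and 14 gained it. With DESeq2, 767 members were higher and 31 lower in the libraries labelled Upf2-/- than in control, 46 and 92 in Pelo-/-, 57 and 27 in Hbs1l-/-, 835 were higher and 58 lower in the libraries labelled Upf2-/- than in Pelo-/-, and 79 were lower than in Hbs1l-/-. The 835, 58 and 79 are 27.2%, 1.89% and 2.57% of the members with an adjusted p, beside 9.68%, 8.6% and 9.12% of all transcripts. A fit of all 11 libraries gave 8 lower members for Upf2 (0.24%, beside 2.11% of all transcripts). It gave 19 higher and 35 lower for Pelo (0.57% and 1.05%, beside 1.75% and 2.18% of all transcripts). For Hbs1l it gave 19 and 7 (0.57% and 0.21%, beside 2.11% and 1.25%). DESeq2's size factors in edgeR gave 5 lower members for Upf2 (0.17%, beside 1.14% of all transcripts), and the filter on libraries outside the comparison 0 (edgeR). Thinning every library to equal depth, an alternative chosen after seeing the data, gave 10 higher for Hbs1l (0.538%, beside 1.17% of all transcripts). With 1 library left out, the ranges were 126 to 313 higher and 0 to 3 lower for Upf2, 0 to 0 for both directions in Pelo and Hbs1l, 0 to 302 higher and 0 to 11 lower for Upf2 against Pelo, and 273 to 432 higher and 4 to 13 lower for Upf2 against Hbs1l.

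For the NMD share in the libraries labelled Upf2-/-, a pseudocount of 0.01 TPM gave 334 higher and 4 lower genes and one of 1 TPM 42 lower, no filter 17 lower, a stricter filter 4 lower and estimated counts 4 lower. Leaving out 1 library gave 146 to 524 higher, with 178, 212 and 146 without library 1, 2 or 3 of the cells labelled Upf2-/-, and 0 to 8 lower. For Hbs1l-/- a pseudocount of 1 TPM gave 2 lower genes and estimated counts 1. Footprints of the 546 genes were lower in 47 to 69 for Hbs1l with 1 library left out, 47 without Hbs1l-/- library 1. The causes were not tested.

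The replicate numbers do not pair the samples: over 13 pairs the correlation of deviations from the group means ran from -0.138 to 0.109, with 1 above 0.1. With the number as a replicate block, 36 members were higher and 0 lower for Upf2, 0 and 0 for Pelo and for Hbs1l, 0 and 0 for Upf2 against Pelo, and 99 and 0 for Upf2 against Hbs1l (edgeR), with 1033, 204, 159, 896 and 1146 at an unadjusted p under 0.05. The 36 are 1.22% of the tested members, beside 0.268% of all transcripts, and the 99 are 3.21%, beside 0.887%. In the other comparisons 0 of all transcripts were called with the block. The share was higher in 302 genes and lower in 3. The differences in library share with the block were 0.52, -0.040 and 0.14 percentage points. Depth limits the low members: the shallowest library holds 22713643 estimated counts, and kallisto's own error was not used.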
